A study of Mus musculus with 12 samples.

Results

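Collagens and the proteins laid down with them form the extracellular matrix, and their transcripts were followed here through RNA of sorted mouse eosinophils. The gene set was drawn from the GENCODE M21 annotation by symbol. It held the 44 protein-coding genes named as collagen alpha chains and 12 further genes, Eln, Fbn1, Mmp2, Mmp14, Aebp1, C7, Igfbp5, Dcn, Lum, Sparc, Bgn and Notch3, 56 of 54115 genes in all. These genes are mostly transcripts of connective tissue, and their reads were summed as a gauge of stromal RNA in the sorted cells. The source of the reads was not tested. A low-count filter kept 37 of the 56 for testing, 25 collagens and the 12 further genes, and left out 19 collagens.

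Collagens are assembled from alpha chains wound into a triple helix, and the chain combination sets the type. Fibrillar types I, III and V give tissue its tensile strength, type IV forms the sheet of basement membranes around vessels and fat cells, and type VI makes beaded filaments around adipocytes. Fibroblasts, adipose progenitors, mural cells and endothelium are the usual producers in fat, whereas eosinophils are blood-borne granulocytes known for granule proteins and cytokines and not for matrix synthesis.

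The series set eosinophils resident in gonadal and in subcutaneous white adipose tissue beside eosinophils of blood. Each group held 4 libraries, and the 12 libraries came from 5 wild-type, untreated male FVB/NJ mice, chow fed and 20 weeks old. Gonadal libraries came from mice 2846, 2807, 2683 and 2668, subcutaneous libraries from mice 2846, 2807, 2771 and 2668, and blood libraries from mice 2807, 2771, 2683 and 2668. Fat was digested with collagenase type II (1 mg/mL) at 37 C for 45 min, while blood was drawn from the heart and not digested, so tissue and digestion cannot be told apart in comparisons with blood. From all 3 sources, live cells positive for CD45, CD11b and Siglec-F were sorted, and stranded total RNA libraries were made with a SMARTer low-input kit.

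The libraries held 4379954 to 23734940 estimated reads. The subcutaneous library of mouse 2846 was the shallowest, the others starting at 12477671, and mitochondrial ribosomal RNA took 28.1% of its reads, against 4.66% to 8.79% elsewhere. It stood apart in the matrix genes as well, so values of the 56 genes that rest on it are given with and without it. Fold changes and calls of genes outside the 56 were taken with it only. So were the median fold changes of the set against blood and the shares by transcript type. Of the eosinophil markers, Siglecf, the sorted surface receptor, lay at 189 to 524 CPM (reads of a gene scaled to a common library size) in gonadal, 149 to 467 CPM in subcutaneous and 231 to 324 CPM in blood libraries. Il5ra, the interleukin-5 receptor chain, was present in every library, at 48.6 CPM or more. The granule genes Epx and Prg2 were low in all groups, with blood means of 4.45 and 3.52 CPM. Summed, the 10 eosinophil markers were lower in every adipose library, at most 3009 CPM, than in any blood library, at least 3166 CPM.

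Matrix gene reads were a small part of every library and a larger one in adipose than in blood. The 56 genes took 0.0428% to 0.12% of the reads of gonadal libraries, 0.0409% to 0.573% of subcutaneous and 0.00991% to 0.0225% of blood libraries. Summed over the set, the level was 416, 1141, 1069 and 832 CPM in the gonadal libraries of mice 2846, 2807, 2683 and 2668. It was 7484, 623, 887 and 448 CPM in the subcutaneous libraries of mice 2846, 2807, 2771 and 2668, and 165, 209, 103 and 220.2 CPM in the blood libraries of mice 2807, 2771, 2683 and 2668. All 8 adipose libraries lay above all 4 blood libraries, and the subcutaneous library of mouse 2846 lay far above the other 11. The gonadal mean was 864 ± 327 CPM and the blood mean 174 ± 53.0 CPM (SD, n = 4 each), a log2 ratio of 2.31. The subcutaneous mean was 2360.3 ± 3420 CPM (SD, n = 4), a log2 ratio to blood of 3.76, and 652 ± 221 CPM (SD, n = 3) without mouse 2846, a log2 ratio of 1.90. These sums carry no test, since the genes were chosen with results of these data known. In bulk RNA, fewer cells of a type and less RNA per cell cannot be told apart.

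**Figure D1:**
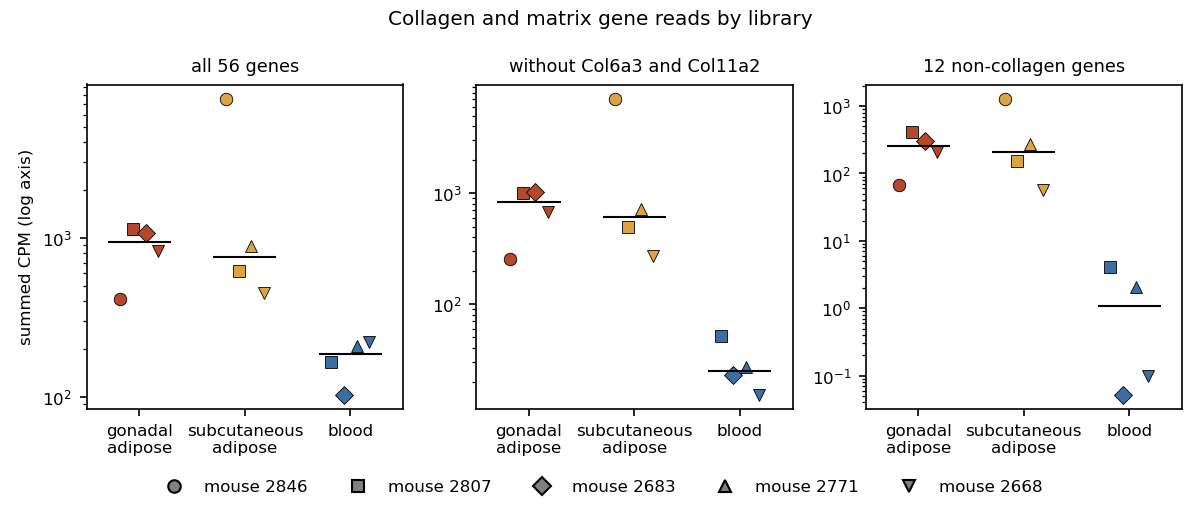
Summed CPM of the matrix genes in each library on a log axis, for all 56 genes, for the set without Col6a3 and Col11a2, and for the 12 genes that are not collagens; each point is a library, its shape the mouse, and lines are group medians. The 12 further genes reached 68.0 to 416 CPM in gonadal and 57.1 to 1262 CPM in subcutaneous libraries, against 0.0524 to 4.15 CPM in blood.

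Most of the blood signal came from 2 genes. Per length, Col11a2 and Col6a3 took 48.2% and 31.2% of the summed TPM (length-scaled transcript share) of the set in blood. Without these 2, a choice made after seeing the data, blood libraries held 15.3 to 51.2 CPM, while gonadal libraries held 255 to 1029 CPM and subcutaneous libraries 272 to 7017 CPM. The log2 ratios of the means then became 4.67 for gonadal and 6.20 for subcutaneous over blood, the second being 4.10 when mouse 2846 was also dropped from subcutaneous fat. The 12 genes other than collagens all but vanished in blood, with sums of 4.15, 2.07, 0.0524 and 0.0992 CPM in mice 2807, 2771, 2683 and 2668. Col3a1 was first of the set per length in 5 of the 8 adipose libraries, after Col6a3 in gonadal fat of mouse 2846 and subcutaneous fat of mouse 2668 and after Dcn in gonadal fat of mouse 2807. It had 5.60, 15.7, 20.2 and 19.3 TPM in gonadal libraries of mice 2846, 2807, 2683 and 2668, and 167, 10.1, 13.1 and 11.1 TPM in subcutaneous libraries of mice 2846, 2807, 2771 and 2668, against 2.48 TPM in the blood of mouse 2807 and at most 0.0315 TPM in that of the other 3 mice. Its medians of 17.5 TPM in gonadal and 12.1 TPM in subcutaneous libraries were the highest of the set, though in subcutaneous fat Col6a3 was level with it at 11.9 TPM.

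The same animals gave the same order. Within a mouse, the gonadal sum was 6.91, 10.3 and 3.78 times the blood sum in mice 2807, 2683 and 2668, and 33 or 34 of the 37 tested genes were higher in the gonadal library. The subcutaneous sum was 3.77, 4.24 and 2.03 times the blood sum in mice 2807, 2771 and 2668. Between depots the animals split: the gonadal sum was 1.83 and 1.86 times the subcutaneous one in mice 2807 and 2668, but only 0.0556 of it in mouse 2846, whose gonadal library was the lowest of its group in 27 of 37 genes and whose subcutaneous library was the highest of its group in 30.

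Gene by gene, edgeR's quasi-likelihood test with Benjamini-Hochberg adjustment over all 15367 genes tested called 26 of the 37 genes higher and 1 lower in gonadal adipose than in blood. Among all genes tested, 15.4% were called higher and 11.6% lower in that comparison. In subcutaneous adipose 27 were called higher and 1 lower against blood, beside a background of 15.4% higher and 11.4% lower. The median log2 fold change of the 37 was 5.96 in gonadal and 6.90 in subcutaneous adipose, against 0.08 and 0.07 over all genes tested. The subcutaneous median rests in part on the library of mouse 2846. Without that library, the median difference, gonadal minus subcutaneous, turned from -1.11 to 0.68. Genes near 0 in blood passed the low-count filter through their adipose level and so had to differ, which means that these counts and medians describe the set and lend it no support. The groups did not overlap for 29 of the 37 genes between gonadal adipose and blood and for 26 between subcutaneous adipose and blood, beside 36.3% and 29.5% of all 15367 genes tested. Both comparisons share the 4 blood libraries. With mouse as a block, edgeR called 21 higher and 1 lower in gonadal and 19 higher and 1 lower in subcutaneous adipose. With mouse as a random effect in limma-voom, 16 were called higher in gonadal and 8 in subcutaneous adipose. That fit ended the calls of Col1a1, Col1a2, Col3a1, Col5a3, Col6a2, Dcn, Aebp1, C7, Igfbp5, Notch3 and Mmp14 in both depots. It also ended that of Col6a5 in gonadal adipose and those of Col4a1, Col4a2, Col5a1, Col6a6, Col15a1, Col27a1, Fbn1 and Bgn in subcutaneous adipose. Without mouse in the model, the p-values rest on the spread between libraries, taken as independent though mice recur across groups. With mouse as a block in edgeR, they rest on the spread left after differences between mice. All cover only the animals sampled here.

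Other alternatives ended further calls. Limma-voom with sample weights ended those of Col1a1, Col1a2, Igfbp5 and C7 in both depots, that of Col6a5 in gonadal adipose, and those of Dcn, Col5a1, Aebp1, Notch3, Col27a1 and Col6a6 in subcutaneous adipose. With no filter on low counts, Col4a2 and Notch3 lost both calls, Col1a1, Col4a1, Col6a2, Eln and Mmp14 the gonadal one, and Col5a1 and Col27a1 the subcutaneous one. An offset for effective length ended the gonadal calls of Col3a1, Col4a1 and Mmp14, at adjusted p of 0.0505, 0.0720 and 0.0532 by edgeR, and the subcutaneous calls of Col11a2 and Col5a1. On protein-coding transcripts alone the gonadal calls of Col4a2 and Col16a1 ended.

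**Figure D2:**
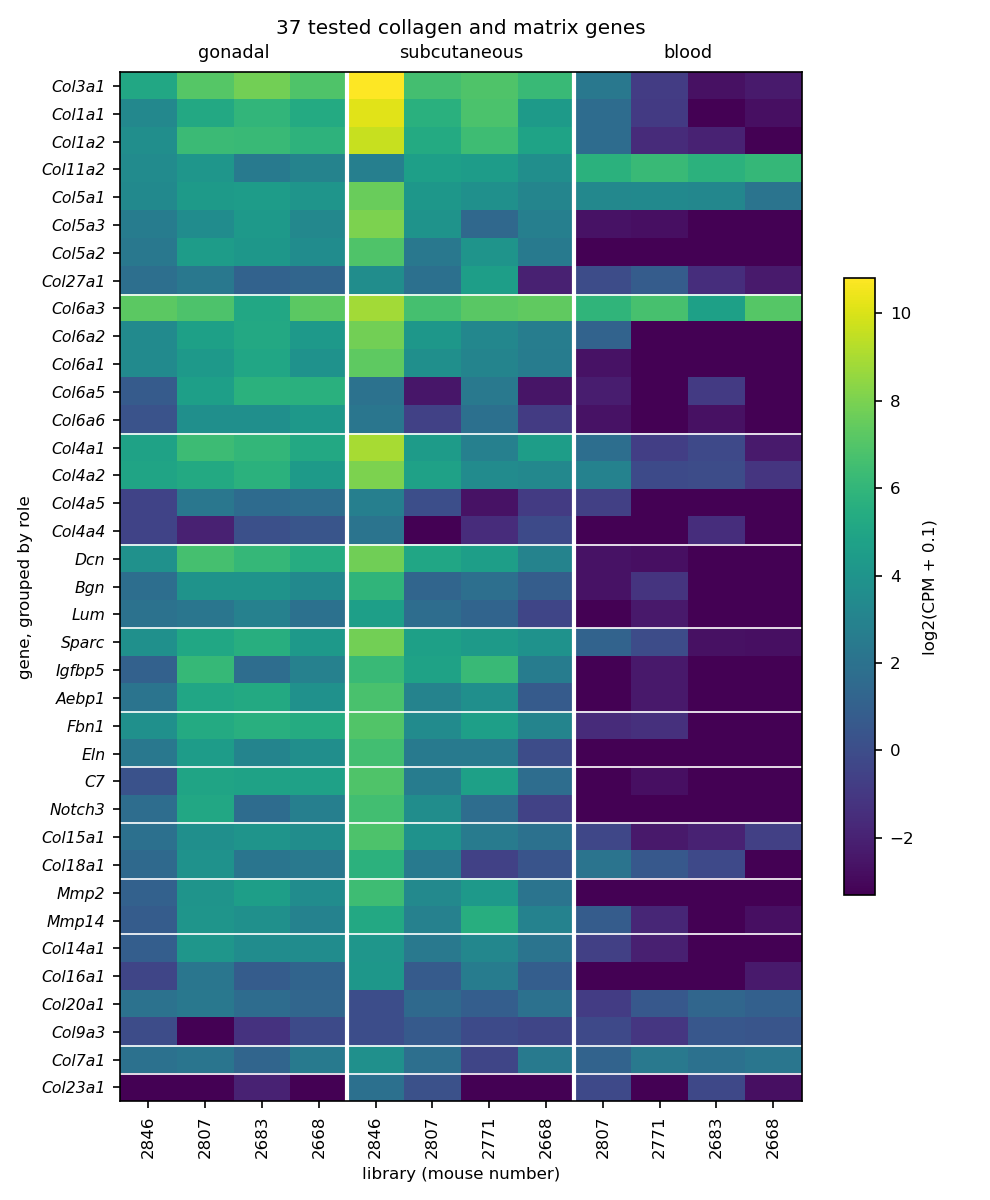
Level of the 37 tested genes in each library, as log2(CPM + 0.1), with genes in rows grouped by role and libraries in columns by group and mouse. The subcutaneous library of mouse 2846 holds the highest values, Col3a1 at 1799.8 CPM first, and the blood columns are near 0 except for Col6a3, Col11a2 and a few low genes.

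Among the fibrillar collagens, 5 of the 8 tested genes rose and 1 fell in gonadal adipose, and 7 rose and 1 fell in subcutaneous adipose. Col3a1, the type III chain of reticular fibres (chromosome 1, 45311538 to 45349706, plus strand, in mm10), had 35.4, 137, 225 and 120.0 CPM in gonadal libraries of mice 2846, 2807, 2683 and 2668. It had 1799.8, 95.4, 123 and 75.9 CPM in subcutaneous libraries of mice 2846, 2807, 2771 and 2668, against 5.04, 0.470, 0.0524 and 0.0992 CPM in blood of mice 2807, 2771, 2683 and 2668. Every adipose library exceeded every blood library, and the blood of mouse 2807 was the one blood library above 1 CPM. Its log2 fold change was 6.56 (SE 1.56, adjusted p = 0.0110) in gonadal and 8.57 (SE 1.69, adjusted p = 0.00450) in subcutaneous adipose. The subcutaneous value was 6.19 without the library of mouse 2846, and with blood lacking mouse 2807 the values were 9.16 and 11.16. Both calls of Col3a1 ended with mouse as a random effect in limma-voom (adjusted p = 0.0916 in gonadal and 0.0790 in subcutaneous adipose), and the gonadal one also with the length offset (log2 fold change 5.13).

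Col1a1 and Col1a2, the chains of type I collagen (chromosomes 11 and 6), followed the same libraries. Col1a1 had 9.43, 37.1, 62.6 and 40.5 CPM in gonadal and 1140.0, 49.2, 112 and 20.8 CPM in subcutaneous libraries, against 3.15, 0.423, 0 and 0.0496 CPM in blood, in the same mouse order. Col1a2 had 12.4, 80.4, 75.6 and 55.6 CPM in gonadal and 796, 40.4, 86.2 and 28.8 CPM in subcutaneous libraries, against 3.09, 0.235, 0.157 and 0 CPM in blood. No adipose library of either gene reached down into the blood range. The log2 fold changes of Col1a1 were 5.42 (adjusted p = 0.0241) in gonadal and 8.56 (adjusted p = 0.00502) in subcutaneous adipose by edgeR. Those of Col1a2 were 6.07 (adjusted p = 0.0128) and 8.14 (adjusted p = 0.00456). The gonadal call of Col1a1 ended when mouse 2771, 2683 or 2668 was dropped from blood or 2683 from gonadal fat, with log2 values of 4.98 to 5.18, and with mouse as a block (5.77). With mouse 2846 dropped from subcutaneous fat the subcutaneous values were 6.15 and 5.98, and with blood lacking mouse 2807 the gonadal values were 7.74 and 8.61 and the subcutaneous values 10.86 and 10.68. In TPM, Col1a1 stood at 0.581 to 1.88 times Col1a2 in gonadal and 0.646 to 2.70 times in subcutaneous libraries.

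The type V chains, which regulate fibril width, did not behave alike. Col5a2 had 5.02, 22.0, 17.9 and 11.6 CPM in gonadal and 119.8, 4.91, 16.0 and 5.30 CPM in subcutaneous libraries and no read in any blood library. Against a floor of 3 reads over the blood group, Col5a2 was at least 375-fold higher in gonadal and at least 447-fold higher in subcutaneous adipose (at least 239-fold without mouse 2846). With mouse as a block its calls ended, at adjusted p of 0.0597 and 0.0708 by edgeR. Col5a3 had 5.97, 11.7, 18.9 and 9.5 CPM in gonadal and 258, 15.2, 2.66 and 6.84 CPM in subcutaneous libraries and 2 blood reads in all, a ratio of 487 in gonadal (95% counting interval 134 to 4027) and 1007 in subcutaneous adipose (278 to 8323), or 299.6 without mouse 2846. Col5a1, on the other hand, was present in blood at 9.44, 10.2, 9.17 and 4.22 CPM, against 10.3, 20.5, 22.3 and 16.2 CPM in gonadal and 193, 18, 13.8 and 8.61 CPM in subcutaneous libraries. Its gonadal libraries lay just above the blood libraries, without a call (log2 fold change 1.07, adjusted p = 0.383 by edgeR, between 0.0271 and 0.576 over the alternatives). Its subcutaneous libraries overlapped those of blood, and the subcutaneous call (2.80, adjusted p = 0.0391 by edgeR) ended without mouse 2846, at 0.72, without any one blood library (2.53 to 2.90) or any one gonadal library (2.75 to 2.78), and with mouse as a block (1.34). Col27a1, a fibrillar chain best known from cartilage, had 3.46, 4.97, 2.08 and 2.38 CPM in gonadal and 12, 3.57, 24.2 and 0.147 CPM in subcutaneous libraries, against 0.890, 1.64, 0.262 and 0.0992 CPM in blood. Its gonadal libraries lay above those of blood and its subcutaneous libraries overlapped them. Col27a1 had a log2 fold change of 2.14 (adjusted p = 0.160) in gonadal and 3.77 (adjusted p = 0.0288) in subcutaneous adipose by edgeR. With mouse as a block the calls changed places, at 3.21 (adjusted p = 0.0272) in gonadal and 2.89 (adjusted p = 0.0574) in subcutaneous adipose by edgeR. The subcutaneous call ended without the subcutaneous library of mouse 2771 (2.76) and with blood lacking mouse 2807, 2683 or 2668 (3.36 to 3.83).

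Col11a2 showed the opposite pattern. Col11a2, a type XI chain of cartilage fibrils (chromosome 17, 34039437 to 34066685, plus strand), was the one gene of the set called lower in adipose. It had 11.3, 16.8, 5.26 and 8.04 CPM in gonadal and 6.89, 24.9, 22.4 and 12.7 CPM in subcutaneous libraries, against 52.1, 76.6, 54.3 and 68.4 CPM in blood. In CPM neither depot overlapped blood, and the blood libraries differed little among themselves. Per length, blood libraries held 4.78 to 11.6 TPM and gonadal ones 1.00 to 3.93 TPM. The subcutaneous library of mouse 2771, at 8.57 TPM, lay above the blood of mice 2807 and 2683, at 7.29 and 4.78 TPM. Col11a2 fell by 2.61 (SE 0.41, adjusted p = 0.000848) on the log2 scale in gonadal and by 1.89 (SE 0.40, adjusted p = 0.00518) in subcutaneous adipose by edgeR. With an offset for effective length the subcutaneous value was -1.12 and was not called (adjusted p = 0.164, the highest over the alternatives, the lowest being 3.55e-05). Of its blood reads, 86.1% were assigned to protein-coding transcripts, against 74.0% in gonadal and 74.9% in subcutaneous libraries. The promoter windows of Col3a1 and Col11a2 are shown because they carry the opposite patterns. They are RefSeq windows on GRCm38.p6 from 250 bases before to 50 bases after a RefSeq gene start. They lie at chr1:45311288-45311587 and chr17:34038888-34039187, both on the plus strand. The Col11a2 window ends before the GENCODE start of the gene given above, 34039437. Capitals mark the motifs TATAAA, then CCAAT, then GGGCGG, each searched on either strand.
Col3a1: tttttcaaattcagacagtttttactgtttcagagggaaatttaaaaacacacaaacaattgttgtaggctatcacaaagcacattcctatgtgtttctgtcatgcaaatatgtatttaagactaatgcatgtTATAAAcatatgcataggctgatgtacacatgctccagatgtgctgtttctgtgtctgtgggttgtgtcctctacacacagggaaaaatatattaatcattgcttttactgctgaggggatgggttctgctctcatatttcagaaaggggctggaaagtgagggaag
Col11a2: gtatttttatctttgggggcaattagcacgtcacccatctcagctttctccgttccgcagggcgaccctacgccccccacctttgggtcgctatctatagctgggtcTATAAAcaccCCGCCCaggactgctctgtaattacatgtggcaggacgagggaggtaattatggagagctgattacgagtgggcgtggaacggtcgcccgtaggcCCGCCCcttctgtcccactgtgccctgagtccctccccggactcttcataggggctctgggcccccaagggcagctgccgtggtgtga

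Col3a1 held TATAAA alone, whereas Col11a2 held TATAAA and GGGCGG on the reverse strand. Windows were found for 43 of the 56 genes. Of their 46 windows, 13.0% held TATAAA, 30.4% CCAAT and 60.9% GGGCGG, beside 13.6%, 37.4% and 35.7% of the 32851 windows of the whole table. The motifs do not overlap one another in letters, and a match describes the window and no more.

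Type VI collagen filaments are built from several chains, of which Col6a3 was read in number in blood and Col6a1 and Col6a2 hardly at all. Col6a1 had 10.7, 19.5, 33.1 and 14.8 CPM in gonadal and 160.2, 13.2, 8.24 and 6.11 CPM in subcutaneous libraries, with 1 read over the blood group. The ratio to blood was 1662 (95% counting interval 298 to 65692) in gonadal and 1553 (278 to 61408) in subcutaneous adipose, or 698 without mouse 2846. Col6a2 had 10.7, 26.6, 36.7 and 19.3 CPM in gonadal and 223, 17.7, 9.35 and 6.18 CPM in subcutaneous libraries, against 2.20 CPM in the blood of mouse 2807 and 0 in the other 3. Both genes, neighbours on chromosome 10, were clear of blood in every adipose library, and per length Col6a1 stayed at 0.757 to 0.959 times Col6a2 in gonadal and 0.726 to 0.954 times in subcutaneous libraries. The log2 fold changes of Col6a2 were 5.48 (adjusted p = 0.0273) and 6.91 (adjusted p = 0.0127) by edgeR. Without the blood library of mouse 2807, which held all its blood reads, they were 11.54 and 12.95, and without mouse 2846 the subcutaneous one was 4.42. The gonadal call of Col6a2 ended when mouse 2771, 2683 or 2668 was dropped from blood or 2683 from gonadal fat (5.01 to 5.15), and both its calls ended with mouse as a block (5.69 and 5.90).

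Col6a3, the large chain of the type VI heterotrimer (chromosome 1, 90765923 to 90843971, minus strand), had 150.1, 118, 34.9 and 153 CPM in gonadal and 459.7, 98.8, 146 and 163 CPM in subcutaneous libraries, against 61.9, 106, 26.5 and 137 CPM in blood. The 3 groups overlapped apart from the subcutaneous library of mouse 2846, and in each group the library of mouse 2683, where there was one, was the lowest. Within a mouse, adipose lay above blood in all 3 gonadal and all 3 subcutaneous pairs. The log2 fold changes of Col6a3 with mouse as a block were 0.28 and 0.68 and were not called by edgeR (adjusted p = 0.527 and 0.147). Without the block, the log2 fold changes of 0.46 (adjusted p = 0.617) in gonadal and 1.39 (adjusted p = 0.118) in subcutaneous adipose were not called by edgeR, while DESeq2 called the subcutaneous one at 1.45. Per length, Col6a3 stood at 1.02 to 14.0 times Col6a1 in gonadal and 1.45 to 32.5 times in subcutaneous libraries, and at 821 times in the 1 blood library with a Col6a1 read. Protein-coding transcripts held 94.3%, 93.3% and 86.9% of its gonadal, subcutaneous and blood reads. A gene of unknown status on the same strand within the locus, Gm36970, averaged 11.7, 16.8 and 2.72 CPM in gonadal, subcutaneous and blood libraries, and reads shared with it cannot be told apart.

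**Figure D3:**
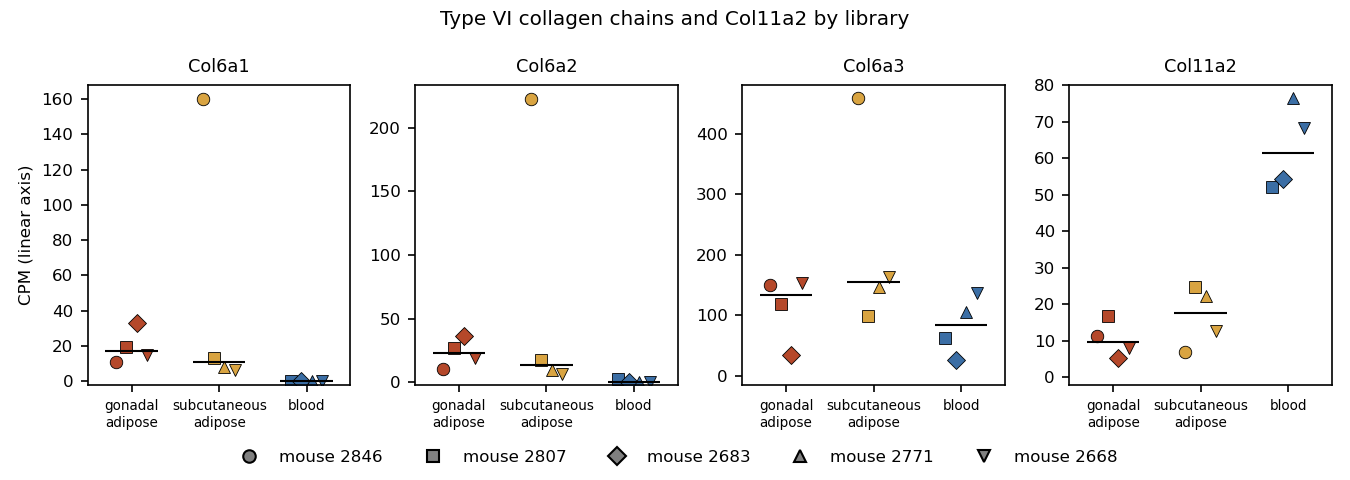
CPM of Col6a1, Col6a2, Col6a3 and Col11a2 in each library on linear axes, by group and mouse, with lines at group medians. Col6a1 and Col6a2 are at or near 0 in blood, Col6a3 is at 26.5 to 137 CPM there, and Col11a2 is highest in blood at 52.1 to 76.6 CPM.

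The minor type VI chains Col6a5 and Col6a6, side by side on chromosome 9, were the genes with the greatest positive difference between gonadal and subcutaneous adipose. Col6a5 had 1.59, 25.6, 52.2 and 50.7 CPM in gonadal and 3.85, 0.0792, 5.11 and 0.0736 CPM in subcutaneous libraries, against 0.119, 0, 0.419 and 0 CPM in blood. Of the gonadal libraries that of mouse 2846 fell within the subcutaneous range, and the other 3 lay above it. Col6a5 was called against blood in gonadal adipose (log2 fold change 7.87, adjusted p = 0.00631 by edgeR) and not in subcutaneous adipose (3.99, adjusted p = 0.0807, between 0.0310 and 0.735 over the alternatives), and the difference between depots, 3.89, was not called (adjusted p = 0.498 by edgeR, between 0.291 and 0.964 over the alternatives). Col6a6 had 1.13, 12.8, 13.1 and 18.3 CPM in gonadal and 4.54, 0.555, 3.68 and 0.441 CPM in subcutaneous libraries, and 2 reads over the blood group. The ratio of Col6a6 to blood was 456 (95% counting interval 126 to 3768) in gonadal and 73.7 (19.8 to 618) in subcutaneous adipose, or 36.7 without mouse 2771, and the depots differed by 2.38 on the log2 scale without a call (adjusted p = 0.531 by edgeR).

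The main basement membrane chains Col4a1 and Col4a2 are transcribed away from each other from a common start region on chromosome 8. Col4a1 (11198423 to 11312826, minus strand) had 28.4, 83.2, 66.6 and 36.6 CPM in gonadal and 508, 21.4, 7.12 and 23.0 CPM in subcutaneous libraries, against 3.32, 0.517, 0.786 and 0.0992 CPM in blood. Col4a2 (11312805 to 11449287, plus strand) had 30.5, 38.3, 52.3 and 20.5 CPM in gonadal and 258, 27.0, 11.0 and 9.64 CPM in subcutaneous libraries, against 7.72, 0.798, 0.890 and 0.347 CPM in blood. Both were higher in every adipose library than in any blood library, and the highest blood library was that of mouse 2807 for each. Their log2 fold changes by edgeR were 5.54 (adjusted p = 0.0175) and 3.88 (adjusted p = 0.0396) in gonadal and 6.90 (adjusted p = 0.00822) and 4.97 (adjusted p = 0.0178) in subcutaneous adipose. With mouse 2846 dropped from subcutaneous fat the subcutaneous values were 3.92 and 2.75, the second of which was no longer called, and with blood lacking mouse 2807 they were 8.14 and 6.73, and 6.79 and 5.65 in gonadal. The gonadal call of Col4a2 also ended without any one gonadal library or with mouse 2771, 2683 or 2668 dropped from blood (3.48 to 4.07), its subcutaneous call with blood lacking mouse 2771 or 2683 (4.66 and 4.68), and the gonadal call of Col4a1 with blood lacking mouse 2771 or 2683 (5.28 and 5.39). The 2 annotated genes overlap by 22 bases at their starts, and their RefSeq promoter windows on GRCm38.p6, chr8:11312777-11313076 on the minus strand for Col4a1 and chr8:11312555-11312854 on the plus strand for Col4a2, share the 78 bases set in capitals, each the reverse complement of the other.
Col4a1: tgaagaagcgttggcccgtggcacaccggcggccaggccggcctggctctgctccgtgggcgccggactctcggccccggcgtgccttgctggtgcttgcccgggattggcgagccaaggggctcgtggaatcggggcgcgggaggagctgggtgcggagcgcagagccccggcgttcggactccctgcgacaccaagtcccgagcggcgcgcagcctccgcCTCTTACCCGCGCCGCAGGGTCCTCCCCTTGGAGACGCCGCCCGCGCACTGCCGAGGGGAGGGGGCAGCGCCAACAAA
Col4a2: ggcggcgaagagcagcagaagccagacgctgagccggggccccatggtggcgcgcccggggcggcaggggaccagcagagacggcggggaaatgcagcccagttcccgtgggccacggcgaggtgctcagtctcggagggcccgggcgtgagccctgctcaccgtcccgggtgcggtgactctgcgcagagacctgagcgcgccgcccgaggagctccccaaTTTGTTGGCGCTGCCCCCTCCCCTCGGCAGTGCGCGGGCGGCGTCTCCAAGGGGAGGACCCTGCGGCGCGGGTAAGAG

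Per length, Col4a1 stood at 1.14 to 2.26 times Col4a2 in gonadal and 1.23 to 4.18 times in subcutaneous libraries. Salmon placed 76.0% of the gonadal, 31.8% of the subcutaneous and none of the 84 blood reads of Col4a1 on its protein-coding transcripts, and 23.1%, 66.5% and 100% on transcripts annotated for nonsense-mediated decay. These shares pool the reads of each group. The subcutaneous library of mouse 2846 held 508 CPM of Col4a1, against at most 23.0 CPM in the other subcutaneous libraries, and shares without it were not taken. The 2 other tested type IV chains, Col4a4 and Col4a5, were low and not called in either depot, with adjusted p of 0.0558 to 0.136 by edgeR. DESeq2 called Col4a5 in both depots and Col4a4 in subcutaneous adipose. Limma-voom called both higher in gonadal adipose, with mouse as a random effect (adjusted p = 0.0138 for Col4a5 and 0.0479 for Col4a4) and with sample weights (0.00320 and 0.0319). For Col4a5, with blood lacking mouse 2807, which held all the blood reads of Col4a5, edgeR called it too, at 8.54 and 7.94, as it did in gonadal adipose with mouse 2846 or 2771 dropped from subcutaneous fat. Col4a4 was called in subcutaneous adipose with blood lacking mouse 2683 (7.28).

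The small leucine-rich proteoglycans, which bind collagen fibrils and space them, rose in both depots, 3 of 3. Decorin, Dcn (chromosome 10, 97479609 to 97518143, plus strand), had 14.1, 98.4, 69.4 and 42.9 CPM in gonadal and 219, 33.0, 24.3 and 7.87 CPM in subcutaneous libraries, with 2 reads over the blood group. Its ratio to blood was 2221 (95% counting interval 614 to 18345) in gonadal and 1394 (385 to 11519) in subcutaneous adipose, or 837 without mouse 2846. Lumican, Lum, its neighbour on chromosome 10, had 3.87, 4.61, 7.23 and 3.72 CPM in gonadal and 25.5, 3.17, 2.23 and 0.662 CPM in subcutaneous libraries, again with 2 blood reads. The ratio of Lum to blood was 201 (95% counting interval 55.2 to 1665) in gonadal and 144 (39.2 to 1198) in subcutaneous adipose, or 77.7 without mouse 2846. Per length, Lum was 0.0328 to 0.190 of Dcn in gonadal and 0.0584 to 0.0867 of it in subcutaneous libraries. Biglycan, Bgn, had 3.33, 15.3, 15.4 and 10.3 CPM in gonadal and 59.6, 2.30, 3.53 and 1.69 CPM in subcutaneous libraries, against 0.0593, 0.329, 0 and 0 CPM in blood. Its log2 fold changes were 6.67 (adjusted p = 0.00855) and 7.22 (adjusted p = 0.00652) by edgeR, the second being 4.56 without mouse 2846, and 8.73 and 9.27 with blood lacking mouse 2771, while mouse as a block ended the subcutaneous call (5.38).

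Of the elastic fibre genes, Eln, which encodes elastin, had 4.97, 22.1, 8.25 and 12.4 CPM in gonadal and 91.5, 5.63, 5.57 and 0.883 CPM in subcutaneous libraries and no blood read. Eln was thus at least 290.2-fold higher in gonadal and at least 270.4-fold higher in subcutaneous adipose (at least 105-fold without mouse 2846), and both calls ended with mouse as a block (adjusted p = 0.0763 and 0.114 by edgeR). Fbn1, the microfibril protein fibrillin-1, had 13.6, 40.1, 48.5 and 41.4 CPM in gonadal and 127, 11.2, 24.8 and 8.31 CPM in subcutaneous libraries, against 0.237, 0.282, 0 and 0 CPM in blood. Even the lowest adipose library of each gene lay above the highest blood library. The log2 fold changes of Fbn1 were 8.04 (SE 1.23, adjusted p = 0.000981) and 8.26 (SE 1.24, adjusted p = 0.000956) by edgeR, the second being 6.78 without mouse 2846, and 8.80 and 9.02 with blood lacking mouse 2771.

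The matrix-associated proteins rose likewise, 3 of 3 in both depots. Sparc, a collagen-binding secreted protein, had 13.7, 33.6, 46.2 and 20.2 CPM in gonadal and 223, 25.8, 20.9 and 14.4 CPM in subcutaneous libraries, against 2.14, 0.892, 0.0524 and 0.0496 CPM in blood. It was one of 9 genes called in gonadal adipose under each of the 23 or 24 alternatives that gave an adjusted p, with Col11a2, Fbn1, Col6a1, Col15a1, Bgn, Col14a1, Col6a6 and Lum, and one of 5 in subcutaneous adipose, with Col6a1, Col14a1, Lum and Col16a1. For Col6a1 and Bgn DESeq2 gave no adjusted p. Of the genes that kept their calls, Col6a1 had 1 blood read, and Lum, Col6a6 and Col16a1 had 2 each. Such genes passed the low-count filter through their adipose level, so a kept call describes them and lends no support. The log2 fold changes of Sparc were 5.20 (SE 1.21, adjusted p = 0.00990) and 6.5 (SE 1.28, adjusted p = 0.00439) by edgeR, the second being 4.74 without mouse 2846, and 6.32 and 7.6 with blood lacking mouse 2807. Aebp1, a secreted collagen-binding protein, had 4.28, 32.3, 38.2 and 14.2 CPM in gonadal and 109.6, 7.76, 13.3 and 1.55 CPM in subcutaneous libraries, with 2 blood reads. The ratio of Aebp1 to blood was 592 (95% counting interval 163 to 4897) in subcutaneous adipose and 304 without mouse 2846.

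Igfbp5, which binds insulin-like growth factors, and Notch3, a receptor of vascular smooth muscle, varied between libraries in another way. Igfbp5 had 2.04, 72.0, 3.22 and 7.25 CPM in gonadal and 76.4, 28.3, 77.7 and 6.11 CPM in subcutaneous libraries, with 2 blood reads. Notch3 had 3.26, 35.2, 3.06 and 6.64 CPM in gonadal and 91.0, 12.2, 3.22 and 0.589 CPM in subcutaneous libraries and no blood read. In gonadal adipose mouse 2807 was far above the other 3 in both genes. The ratio of Igfbp5 to blood was 675 (95% counting interval 187 to 5581) in gonadal adipose and 158 without mouse 2807, and 1651 (457 to 13645) in subcutaneous adipose, where leaving out mouse 2771 gave 910.0. Notch3 was at least 265-fold higher in gonadal (at least 107-fold without mouse 2807) and at least 292-fold higher in subcutaneous adipose (at least 130.3-fold without mouse 2846), and both its calls ended with mouse as a block (adjusted p = 0.0921 and 0.123 by edgeR).

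The smooth muscle gene Myh11 was highest in the libraries where Notch3 was highest in each depot, while the subcutaneous library of mouse 2771, the highest for Igfbp5, held almost none. Myh11, the smooth muscle myosin heavy chain, had 3.26, 349, 5.03 and 46.7 CPM in gonadal and 499, 87.1, 0.0619 and 0.515 CPM in subcutaneous libraries, against 0.356, 1.31, 0 and 0.0496 CPM in blood. The list of 10 mural markers summed to 10.5 to 550 CPM in gonadal, 5.89 to 715 CPM in subcutaneous and 7.84 to 15.7 CPM in blood libraries. Gonadal libraries reached at most 78.7 CPM without mouse 2807 and subcutaneous ones 137 CPM without mouse 2846. Of the 7 tested mural genes 2 were called higher in gonadal and 4 in subcutaneous adipose, beside 15.4% of all genes tested in each. The part of mural cells in the result was not tested.

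**Figure D4:**
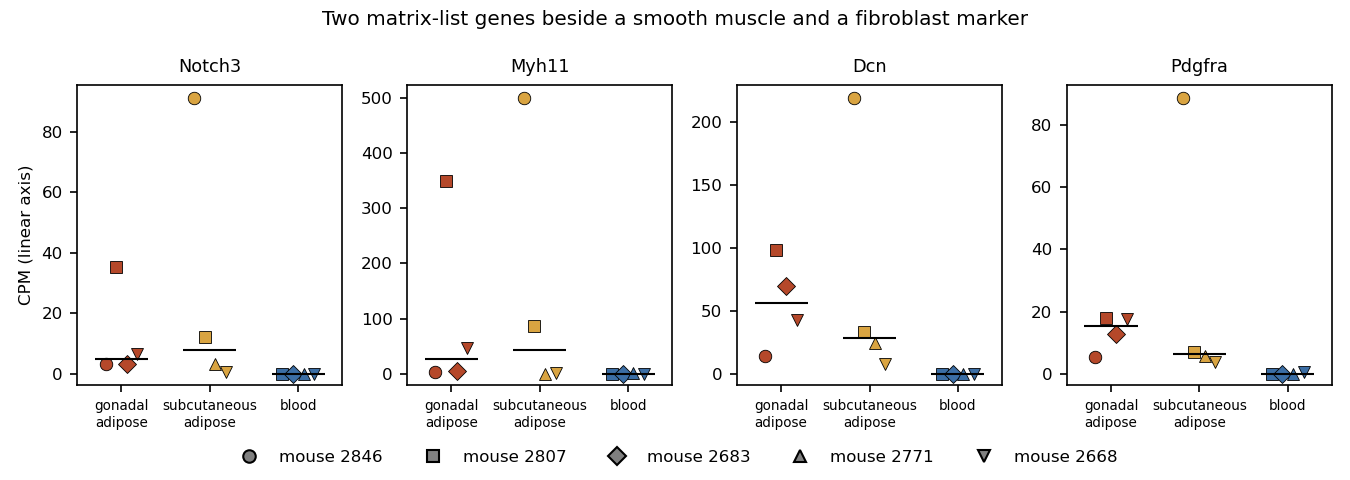
CPM of Notch3, Myh11, Dcn and Pdgfra in each library on linear axes, by group and mouse, with lines at group medians. Notch3 and Myh11 are high in the gonadal library of mouse 2807 and the subcutaneous library of mouse 2846, and Dcn and Pdgfra are highest in the subcutaneous library of mouse 2846, at 219 and 88.6 CPM.

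The matrix metalloproteinases Mmp2, a gelatinase, and Mmp14, its membrane-bound activator, rose in both depots. Mmp2 had 2.04, 15.6, 24.6 and 11.8 CPM in gonadal and 84.1, 10.1, 20.3 and 4.27 CPM in subcutaneous libraries and no blood read. It was at least 390.1-fold higher in gonadal (at least 252-fold without mouse 2683) and at least 448-fold higher in subcutaneous adipose (at least 312-fold without mouse 2846), and both calls ended with mouse as a block (adjusted p = 0.0602 and 0.0634 by edgeR). Mmp14 had 1.63, 16.3, 13.4 and 7.49 CPM in gonadal and 36.5, 7.21, 47.0 and 7.51 CPM in subcutaneous libraries, against 1.66, 0.188, 0 and 0.0496 CPM in blood. The gonadal library of mouse 2846 was level with the blood of mouse 2807, and the other adipose libraries were clear of blood. The log2 fold changes of Mmp14 were 4.39 (adjusted p = 0.0205) and 5.72 (adjusted p = 0.00771) by edgeR, and 6.73 and 8.05 with blood lacking mouse 2807. The gonadal call ended with blood lacking mouse 2771 or 2668 (4.11 and 3.97).

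C7, a component of the terminal complement complex that stromal cells secrete, had 1.09, 30.6, 27.7 and 27.2 CPM in gonadal and 119, 6.02, 26.4 and 3.24 CPM in subcutaneous libraries, with 1 blood read. The gonadal libraries of mice 2807, 2683 and 2668 were nearly equal and that of mouse 2846 was far below them. The ratio of C7 to blood in subcutaneous adipose was 1602 (95% counting interval 287 to 63348), or 999 without mouse 2846.

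The remaining collagens are those of the basement membrane zone and those bound to fibrils. Col15a1, of the basement membrane zone, had 3.66, 13.0, 16.0 and 12.3 CPM in gonadal and 119, 14.5, 5.88 and 3.83 CPM in subcutaneous libraries, against 0.712, 0.0939, 0.157 and 0.546 CPM in blood. The groups did not overlap, and Col15a1 had log2 fold changes of 4.90 (adjusted p = 0.0121) and 6.53 (adjusted p = 0.00402) by edgeR, the second being 4.43 without mouse 2846. Col14a1, which links fibrils to other matrix, had 1.76, 17.2, 11.4 and 11.6 CPM in gonadal and 17.4, 5.23, 9.35 and 4.27 CPM in subcutaneous libraries, against 0.534, 0.141, 0 and 0 CPM in blood. Its log2 fold changes were 5.96 (adjusted p = 0.00206) and 5.72 (adjusted p = 0.00262), and 7.5 and 7.26 with blood lacking mouse 2807. Col16a1, also fibril-associated, had 0.679, 4.54, 1.61 and 2.25 CPM in gonadal and 17.7, 1.58, 6.13 and 1.77 CPM in subcutaneous libraries, 2 blood reads and a ratio of 82.9 (95% counting interval 22.6 to 691) in gonadal and 171 (46.7 to 1422) in subcutaneous adipose. Without mouse 2846 the subcutaneous ratio of Col16a1 was 130.6.

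The tested genes not called in either depot, apart from Col6a3, Col4a4 and Col4a5, were Col18a1, Col20a1, Col9a3, Col7a1 and Col23a1. Col7a1, of the anchoring fibrils of skin, had 2.36 to 5.67 CPM in gonadal and 0.681 to 13.5 CPM in subcutaneous libraries, against 2.20 to 5.12 CPM in blood, with log2 fold changes of 0.05 and 0.52 whose sign turned under several alternatives. The 19 collagens left out by the filter had means over all libraries of at most 1.42 CPM. The highest single value among them was 13.5 CPM, for Col28a1 in the subcutaneous library of mouse 2846, and 9 of the 19 had no blood read.

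**Figure D5:**
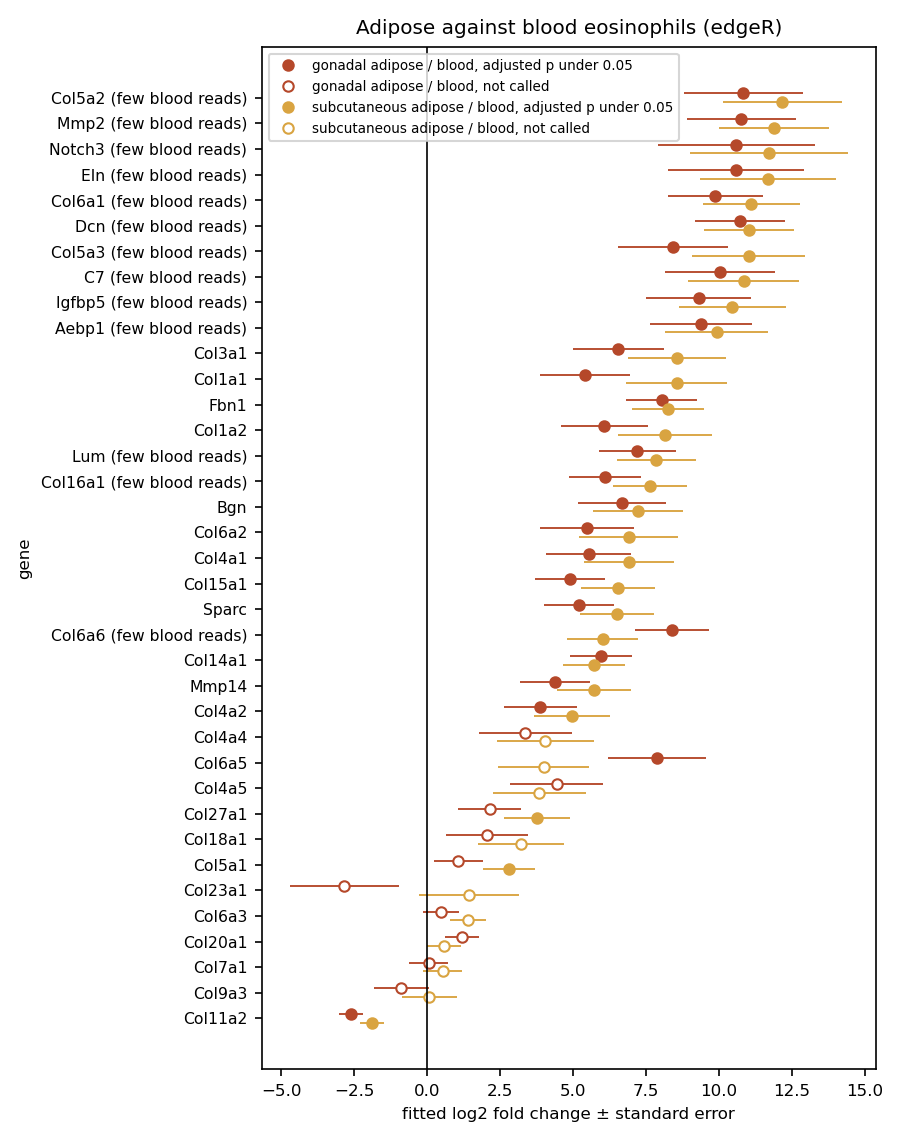
Fitted log2 fold change with its approximate standard error for the 37 tested genes, gonadal and subcutaneous adipose each against blood, with filled points for adjusted p under 0.05. Genes marked as having few blood reads had at most 3 over the group, so their fitted values depend on the model's prior count; Col11a2 at -2.61 and -1.89 is the one gene called lower.

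Between gonadal and subcutaneous adipose, edgeR called none of the 37 genes, beside 0% of all genes tested called higher and 0.00651% lower. The smallest adjusted p was 0.498. Unadjusted p was under 0.05 for 5 genes, and the share of all genes tested under it was not taken. DESeq2 and limma-voom also called none. The log2 differences ran from -4.27 to 3.89 with a median of -1.11, against -0.01 over all genes tested, and 32 of the 37 were negative. That direction did not hold in every fit. With all 12 libraries kept, the median difference was -0.10 with mouse as a block in edgeR (17 positive, 20 negative), 0.39 with mouse as a random effect in limma-voom (25 positive, 12 negative) and 0.42 in limma-voom with sample weights (23 positive, 14 negative). It also turned with 1 library: the log2 ratio of the summed means, gonadal over subcutaneous, was -1.45 over all libraries and 0.40 with mouse 2846 dropped from subcutaneous fat, where 28 genes were positive and the median difference was 0.68.

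Genes that make, modify and bind matrix, 115 on 7 lists, were called in part. Of the 92 tested, 51 were called higher and 3 lower in gonadal adipose and 51 higher and 2 lower in subcutaneous adipose against blood, with median log2 fold changes of 3.95 and 3.46. Over all genes tested, 15.4% were called higher in each depot, and 11.6% lower in gonadal and 11.4% lower in subcutaneous adipose. Genes near 0 in blood again passed the filter through their adipose level, so these counts and those of the 7 lists only describe the lists. For crosslinking and procollagen processing, 8 of 10 tested genes were called higher in both depots. Tgm2, a transglutaminase that crosslinks matrix proteins, averaged 620.2 ± 288 CPM over the gonadal libraries, against 21.9 ± 6.55 CPM over those of blood (SD, n = 4), and the other called genes of that list were far lower, such as Bmp1, a procollagen protease, at 3.88 ± 1.97 CPM, against 0.0680 ± 0.0857 CPM in blood. Of 17 tested genes for collagen folding and hydroxylation, 6 were called higher in each depot, including P4ha1, a prolyl hydroxylase subunit (log2 fold changes 1.09 and 1.27), and the collagen chaperone Serpinh1 (5.18 and 6.33).

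Among 27 tested glycoproteins 17 were called higher in each depot. Thbs1, which encodes thrombospondin-1, averaged 1432 ± 506 CPM over the gonadal libraries, against 164 ± 52.8 CPM over those of blood (SD, n = 4), and its log2 fold changes were 3.13 and 2.96, while the laminin chain Lama2 had 6.72 and 7.91. Of 9 other proteoglycans 6 and 7 were called higher. Perlecan, Hspg2, had log2 fold changes of 5.19 and 6.83, and Srgn, the proteoglycan of leukocyte granules, 1.07 and 1.16. Agrin, Agrn, fell by 1.15 in gonadal adipose.

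Of 14 matrix proteases, 7 were called higher and 1 lower in gonadal adipose and 5 higher and 1 lower in subcutaneous adipose. Mmp12, an elastase known from macrophages, had 254, 112, 796 and 37.2 CPM in gonadal and 1.20, 6.58, 7.68 and 1.55 CPM in subcutaneous libraries, against 0.0524 to 2.08 CPM in blood. Every gonadal library lay above every subcutaneous one, a log2 difference that edgeR did not call (6.05, adjusted p = 0.153). Of 7 protease inhibitors 5 were called higher in each depot, among them Timp2 (1.3 and 1.23). Of 8 collagen receptors, 2 were called higher and 1 lower in gonadal and 3 higher and 1 lower in subcutaneous adipose: Ddr2 (6.18 and 6.56) and Mrc2 (4.30 and 3.89) rose in both depots, and Lair1, an inhibitory collagen receptor of leukocytes, fell by 1.75 and 1.93.

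Markers of other cell types were read in the same libraries, some higher and some lower in adipose. Over all genes tested, 15.4% were called higher in each depot, and 11.6% lower in gonadal and 11.4% lower in subcutaneous adipose. The limit set by the filter holds for these lists too. Pdgfra, the receptor that marks fibroblasts and adipose progenitors, had 5.29, 17.9, 12.9 and 17.7 CPM in gonadal and 88.6, 6.97, 5.64 and 3.90 CPM in subcutaneous libraries, against 0, 0, 0.0524 and 0.397 CPM in blood. Of the 11 tested genes of the 14 on the fibroblast and progenitor list, 6 were called higher in each depot. The summed list overlapped between groups, at 91.8 to 213 CPM in gonadal, 100.2 to 304 CPM in subcutaneous and 132 to 206 CPM in blood libraries, and Pi16 alone had 110.4 to 204 CPM in blood. Without Pi16, a choice made after seeing the data, the sums were 15.3 to 102 CPM, 17.6 to 243 CPM and 2.03 to 22.0 CPM. With mouse 2846 dropped from subcutaneous fat these subcutaneous sums reached at most 142 CPM, and 39.0 CPM without Pi16. Endothelial markers summed to 51.7 to 91.8 CPM in gonadal, 39.3 to 302 CPM in subcutaneous and 84.1 to 137 CPM in blood libraries, with 1 of 8 tested genes called higher and 1 lower in gonadal and 2 higher in subcutaneous adipose. The subcutaneous libraries other than that of mouse 2846 reached at most 108 CPM, below the highest of blood. Pecam1, also a leukocyte gene, had 80.6 to 114 CPM in blood. Macrophage markers summed to 856 to 2692 CPM, 985 to 3394 CPM and 332 to 652 CPM, and 7 of 12 and 8 of 12 were called higher. Of the 8 mesothelial markers 1 was tested and not called, with log2 fold changes of -1.81 in gonadal and -2.30 in subcutaneous adipose. The mesothelial list summed to 2.24 to 3.24 CPM in gonadal, 0 to 2.22 CPM in subcutaneous and 2.54 to 14.4 CPM in blood libraries. Msln and Upk3b of that list were at 0 in all blood and subcutaneous libraries and in 3 of the 4 gonadal ones. Platelet markers summed to 48.7 to 107 CPM in gonadal, 89.8 to 131 CPM in subcutaneous and 26.9 to 51.4 CPM in blood libraries, with 1 of 2 tested genes called higher in each depot. Of the 10 eosinophil markers 4 were called lower in each depot, and they summed to 1028 to 3009 CPM in gonadal, 993 to 2856 CPM in subcutaneous and 3166 to 3955 CPM in blood libraries. Adipocyte markers summed to 53.1 to 122 CPM in gonadal, 51.0 to 185 CPM in subcutaneous and 62.5 to 66.2 CPM in blood libraries, and of 7 tested 3 were called higher in gonadal and 4 in subcutaneous adipose and 1 lower in each. The adipocyte sums of the subcutaneous libraries other than that of mouse 2846 reached at most 64.7 CPM, below the highest of blood.

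Markers of other blood cells were read too, with most of the tested ones called lower in gonadal adipose. Over all genes tested, 11.6% were called lower in gonadal and 11.4% in subcutaneous adipose, and 15.4% higher in each. Neutrophil markers summed to 187 to 409 CPM in gonadal, 169.7 to 681 CPM in subcutaneous and 2362 to 3686 CPM in blood libraries, and 5 of 6 tested were called lower in each depot. Without mouse 2807 the highest neutrophil sums were 246 CPM in gonadal and 279 CPM in subcutaneous libraries. Erythroid markers summed to 21.1 to 99.7 CPM, 7.65 to 230.3 CPM and 17.7 to 8353 CPM in the same order of groups, with 3 of 5 tested called lower in gonadal and none in subcutaneous adipose. The erythroid sums reached at most 45.7 CPM in gonadal fat without mouse 2807, 110.3 CPM in subcutaneous fat without mouse 2846 and 144 CPM in blood without mouse 2771. B cell markers summed to 1.96 to 2.95 CPM in gonadal, 7.21 to 36.4 CPM in subcutaneous and 13.0 to 142.7 CPM in blood libraries, and all 4 were called lower in gonadal adipose and none in subcutaneous adipose. The B cell sums reached at most 15.0 CPM in subcutaneous fat without mouse 2771 and 28.2 CPM in blood without mouse 2807. T cell markers summed to 0.766 to 2.99 CPM, 8.01 to 60.4 CPM and 7.29 to 13.8 CPM, with 3 of 4 called lower in gonadal and 1 higher in subcutaneous adipose. Of 5 tested Schwann, skeletal muscle and epithelial markers, 2 were called lower in gonadal adipose, and 2 lower and 1 higher in subcutaneous adipose. The part of any of these cells in the result was not tested.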

How the data were processed

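RNA of sorted eosinophils from 12 libraries was quantified per transcript. The deposited files hold estimated counts and TPM, both made by the authors with Salmon 1.6.0 after Trim Galore 0.6.4 on mm10, per the submitters' processing notes, which also list DESeq2 1.30.1. The annotation release and strand setting are not given in the sources used here. Here transcripts were matched to GENCODE M21 (139791 of 140992; 1201 unmatched transcripts held 0.351% to 0.538% of reads), estimated counts were summed per gene and rounded to whole numbers, and CPM used TMM-scaled library sizes. The deposited TPM values were summed per gene and used to compare levels between genes. For Col3a1 and Col11a2 they also give levels per length by library.

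All 12 libraries entered 1 edgeR quasi-likelihood fit (edgeR 4.0.16, limma 3.58.1, R 4.3.3, robust, genes filtered by filterByExpr), with Benjamini-Hochberg adjustment over 15367 genes and a threshold of 0.05. The standard error (SE) of a fold change is approximate. It was taken as the size of the log2 fold change over the square root of the test's F statistic. Alternatives used DESeq2 1.42.0, limma-voom, other scalings, filters and transcript sets, each library left out, and mouse as a block. The pairing comes from the labels, where a number marks the animal; deviations of the 9 same-mouse pairs correlated at -0.111 to 0.358. The procedure was tested on simulated data. Tables were handled with Python 3.11.15, pandas 2.3.3 and SciPy 1.17.1. Values per library are given for the 12 genes that are not collagens, the 12 collagens with the highest mean CPM and every member called; of each wider matrix list up to 3 called genes with the highest mean CPM are named, and of each cell marker list at most its 2 most abundant genes, with Siglecf and Il5ra for eosinophils. Gm36970, Epx, Prg2, Msln and Upk3b are named outside that rule, after their values were seen. The genes and lists were chosen with earlier results of these data known. Counting intervals and floors (95%, 3 counts) cover counting error only. One gene that this rule names is not reported here.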

Additional observations from a re-analysis of the deposited data

Results flagged for a closer look

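In 32 of the 97 groups of 4 libraries examined, 1 library stood so far from the other 3 that the gap passed Dixon's 95% critical value. Chance passes that value in about 1 in 20 independent groups of normally spread values. These groups share the same libraries and were taken on plain CPM, so that rate is no yardstick for the 32. In 23 of the 32 the library apart was the subcutaneous library of mouse 2846, at the high end. Its summed level was 7484 CPM for the whole set and 6222 CPM for the collagens, against at most 887 and 617 CPM in the other subcutaneous libraries. Its fibrillar chains stood at 1799.8 CPM for Col3a1, 1140.0 for Col1a1, 796 for Col1a2, 193 for Col5a1, 258 for Col5a3 and 119.8 for Col5a2. Its other collagens stood at 508 CPM for Col4a1, 258 for Col4a2, 6.89 for Col4a5, 223 for Col6a2, 160.2 for Col6a1, 119 for Col15a1 and 54.5 for Col18a1. The further genes stood at 219 CPM for Dcn, 223 for Sparc, 127 for Fbn1, 109.6 for Aebp1, 91.0 for Notch3, 91.5 for Eln, 59.6 for Bgn and 25.5 for Lum.

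In 6 groups it was the blood library of mouse 2807, also at the high end, with 5.04 CPM of Col3a1, 3.15 of Col1a1, 3.09 of Col1a2, 7.72 of Col4a2, 2.20 of Col6a2 and 1.66 of Mmp14. The gonadal library of mouse 2807 was high for Igfbp5, at 72.0 CPM, and for Notch3, at 35.2 CPM. The gonadal library of mouse 2846 was low for C7, at 1.09 CPM, against 27.2 to 30.6 CPM in the others. The cause of these gaps was not tested.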

How the results depend on the processing

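Of the 27 genes called in gonadal adipose, 9 kept their call under each of the 24 alternatives, or 23 for Col6a1 and Bgn, to which DESeq2 gave no adjusted p, and of the 28 called in subcutaneous adipose 5 did; none of the called genes turned direction. With mouse as a random block in limma-voom 16 genes were called higher in gonadal and 8 in subcutaneous adipose, against 26 and 27, and limma-voom with sample weights called 17 higher in subcutaneous adipose. With mouse as a block in edgeR the counts were 21 and 19. An offset for effective length left 0 called lower in subcutaneous adipose. Leaving out 1 library at a time gave 21 to 28 and 25 to 29 called higher. The log2 ratios of the sums then ran from 2.12 to 2.51 for gonadal over blood, 1.92 to 4.11 for subcutaneous over blood and -1.79 to 0.40 for gonadal over subcutaneous adipose. With mouse 2846 dropped from subcutaneous fat and 2807 from blood, the scaling being refitted, subcutaneous over blood was 1.89 and gonadal over subcutaneous 0.40, and with medians they were 2.01 and 0.33. Without Col6a3 and Col11a2, chosen after seeing the data, the ratios to blood were 4.67 and 6.20; with subcutaneous mouse 2846 dropped as well, subcutaneous over blood was 4.10 and gonadal over subcutaneous 0.58. Genes that were not called turned sign. Col7a1 in gonadal adipose was -0.44 with the mouse block, -0.12 with the random block, -0.048 with limma-voom, -0.14 without both libraries and ran from -0.18 to 0.21 over single-library omissions. Col7a1 in subcutaneous adipose was -0.34, -0.56, -0.49 and -0.46 under those settings and ran from -0.26 to 0.88 over the omissions. Col9a3 in subcutaneous adipose was -0.023 by library size alone and ran from -0.24 to 0.28, and Col23a1 ran from -0.17 to 1.97. The cause of these changes was not tested. Genes with few blood reads have no exact fold change at this depth. They passed the low-count filter through their adipose level, so any call they kept lends no support.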
